A study of Mus musculus with 4 samples.

Results

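The genes described here are 10 genes that take fatty acids into a cell, bind and activate them, and store them: Cd36, Slc27a1, Slc27a4, Fabp5, Acsl1, Acsl3, Acsl5, Dgat1, Dgat2 and Plin2. They were chosen by name from the 34745 genes of the deposited table, with the difference between the groups in these same libraries already known. Their differences between groups are therefore given as a description, without p-values. RNA was sequenced from 4 cultures of naive CD4+ T cells, taken from the spleens of C57BL/6 mice and kept for 3 days in medium that polarises them towards regulatory T (Treg) cells. The mice of 2 libraries, numbered 13 and 15, were wild type, and those of the other 2, numbered 22 and 24, had the genotype Setd2-CD4 cre. Setd2 is the histone methyltransferase that trimethylates lysine 36 of histone H3, and a Cre recombinase driven by Cd4 acts in developing T cells that pass through a CD4-expressing stage. The labels do not say which part of Setd2 is removed, whether the wild-type mice carried Cre or a modified Setd2 allele, the age of the mice, or whether 2 libraries with the same genotype are 2 mice. Differences are therefore set against the spread between libraries, which may be technical.

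Long-chain fatty acids enter cells with the help of the scavenger receptor CD36 and the fatty acid transport proteins of the Slc27a family, and are carried in the cytosol by fatty acid binding proteins. Acyl-CoA synthetases couple them to coenzyme A, which traps them in the cell and makes them available for oxidation, membrane lipids or storage. Diacylglycerol acyltransferases add the last acyl chain of triacylglycerol, which is kept in lipid droplets coated by perilipins. Treg cells are known to use exogenous fatty acids, and CD36 and FABP5 have both been studied in them.

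Library totals ran from 14599957 to 16030869 counts, so that 3 counts equalled 0.184 to 0.201 counts for each 1000000 counts (CPM, on library sizes scaled by trimmed mean of M values). Setd2 itself stood at 137 and 146 CPM (wild type 13 and 15) against 137 and 113 CPM (libraries 22 and 24), and the groups overlapped. Reads from exons that were not removed also count towards this level, so it does not test the deletion, and the second group is called knockout-labelled. Of 8 T-cell markers 0 were called (edgeR, DESeq2 and limma-voom; 1 was lower at an unadjusted p below 0.05). The T-cell genes Cd3e and Cd4 were abundant in every library (Cd3e at 259 to 291 CPM, Cd4 at 986 to 1257 CPM). Foxp3, which defines Treg cells, stood at 242 and 247 CPM (wild type) against 31.9 and 75.8 CPM for knockout-labelled 22 and 24 (edgeR's quasi-likelihood test, log2 fold change -2.18, SE 0.37, adjusted p = 0.0233). Leaving out library 22 moved this value to -1.68, leaving out library 24 to -2.94, and Foxp3 was called lower in both cases. It was one of 4 of the 6 Treg markers that fell. The other 2, Ikzf2 and Ctla4, were not called and stood higher in both knockout-labelled libraries, with log2 differences of 0.34 and 0.41 (edgeR adjusted p = 0.103 and 0.0702). The knockout-labelled libraries thus carry less of the transcript that names the culture.

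Cd36, Dgat1 and Plin2 were higher in the knockout-labelled libraries, by 8.11-fold, 2.69-fold and 1.60-fold. The other 7 genes were not called at an adjusted p below 0.05 over all genes tested. All 10 genes passed the filter on low counts. With edgeR's quasi-likelihood test 3 of the 10 were called higher, where 5.53% of the 13279 genes tested were called higher, and 0 were called lower, where 4.59% were. DESeq2 and limma-voom also called 0 of them lower, and 2 were lower at an unadjusted p below 0.05. The CPM of the groups did not overlap for 9 of the 10 genes, and for 63.8% of all genes tested. The median log2 fold change of the 10 genes was 0.13, beside -0.0013 over all genes tested. Because the genes were picked with this comparison in view, nothing is read from these counts.

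**Figure D1:**
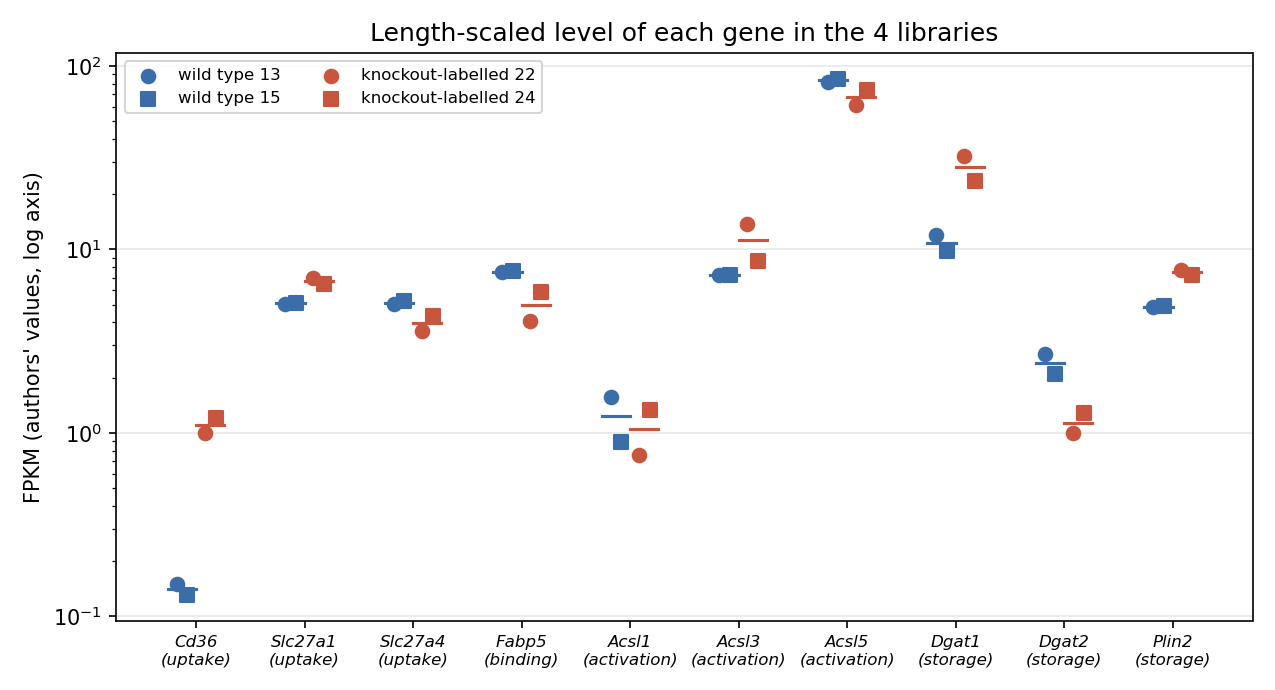
Authors' FPKM (log axis) of the 10 genes, ordered by role, in wild type 13 and 15 (blue) and knockout-labelled 22 and 24 (red), with short lines at the group means. Acsl5 lies far above the others in all 4 libraries, and Cd36 lies lowest in wild type at 0.149 and 0.131 FPKM.

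Per transcript length, these genes spanned a wide range. On the authors' FPKM scale the wild-type means, from highest to lowest, were 83.6 for Acsl5, 10.9 for Dgat1, 7.57 for Fabp5, 7.27 for Acsl3, 5.13 for Slc27a4, 5.08 for Slc27a1, 4.88 for Plin2, 2.39 for Dgat2, 1.23 for Acsl1 and 0.140 for Cd36. In that order, Slc27a4 and Slc27a1 were the neighbours whose libraries overlapped. In the knockout-labelled group the order was Acsl5 (67.6 FPKM), Dgat1 (28.0), Acsl3 (11.2), Plin2 (7.51), Slc27a1 (6.72), Fabp5 (4.97), Slc27a4 (3.99), Dgat2 (1.14), Cd36 (1.10) and Acsl1 (1.05). Here the levels of Fabp5 and Slc27a4 overlapped between libraries, as did those of Dgat2, Cd36 and Acsl1. Among the genes tested, the mean FPKM of Acsl5 lay at the 96.85th percentile in wild type, and that of Cd36 at the 3.223rd in wild type and the 19.68th in the knockout-labelled group. Cd36 was thus a low transcript in both groups, while Acsl5 was among the abundant ones.

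Cd36 encodes a scavenger receptor that binds long-chain fatty acids and oxidised lipoproteins at the cell surface. The gene (ENSMUSG00000002944) lies on chromosome 5 at 17781690 to 17888801 on the minus strand of GRCm38. It gave 20 counts in wild type 13, 16 in wild type 15, 130 in knockout-labelled 22 and 158 in knockout-labelled 24. On the CPM scale, with exact 95% counting intervals, these were 1.23 (0.749 to 1.89), 1.07 (0.614 to 1.74), 8.70 (7.27 to 10.3) and 10.1 (8.57 to 11.8). Both knockout-labelled libraries were high and both wild-type libraries low, and no interval of one group reached the other group. The intervals cover counting error only. The group means were 1.15 ± 0.108 and 9.39 ± 0.980 CPM (SD, n = 2 each), a log2 fold change of 3.02 (SE 0.28), and 53 of the 13279 genes tested had a higher log2 fold change. Leaving out any 1 library gave a log2 fold change of Cd36 between 2.90 and 3.13, and it was called higher each time.

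The promoter windows of Cd36 and Plin2 are shown because these genes of fatty acid entry and storage were both called higher. Dgat1, also a storage gene called higher, had no window under its symbol. They are from RefSeq for GRCm38.p6, hold 250 bases before and 50 after a transcript start, and read 5′ to 3′ on the gene's strand. Cd36 is at chr5:17835847-17836146 and Plin2 at chr4:86670010-86670309, both on the minus strand. Capitals mark matches on either strand to AGGTCA (the nuclear receptor half-site), to CCAAT, to GGGCGG (the GC box) or to ACGTG (the core of the hypoxia response element).
Cd36: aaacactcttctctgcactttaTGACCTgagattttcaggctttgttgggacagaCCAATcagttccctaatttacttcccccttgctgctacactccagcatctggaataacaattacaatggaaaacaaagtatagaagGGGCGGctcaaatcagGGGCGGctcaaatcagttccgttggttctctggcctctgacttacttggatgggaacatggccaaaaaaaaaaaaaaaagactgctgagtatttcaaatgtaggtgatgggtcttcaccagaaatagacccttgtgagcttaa
Plin2: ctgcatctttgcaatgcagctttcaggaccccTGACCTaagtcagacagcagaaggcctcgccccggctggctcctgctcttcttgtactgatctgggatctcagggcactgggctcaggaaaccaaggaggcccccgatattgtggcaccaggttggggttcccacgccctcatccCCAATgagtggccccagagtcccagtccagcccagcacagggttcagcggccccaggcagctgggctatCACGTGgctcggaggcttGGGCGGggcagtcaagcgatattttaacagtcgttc
Each window held 1 AGGTCA match on the reverse strand, whose first base lay at position -228 in Cd36 and -218 in Plin2, counted from the start. AGGTCA on either strand was present at least once in 16.3% of 32851 windows of the same length. The direct repeat AGGTCANAGGTCA, to which PPAR receptors with RXR can bind, was in neither window and in 0.0396% of all. TATAAA, found in 13.6% of all windows, was also in neither. Both windows held CCAAT (37.4% of all windows) and GGGCGG (35.7%), Cd36 with 2 GC boxes and Plin2 with 1. Only the Plin2 window held ACGTG (19.6% of all windows), within the palindrome CACGTG, so that it was matched on both strands. Which factor, if any, binds this stretch was not tested. The Cd36 window had 43.0% G and C and 3 CpG, the Plin2 window 60.7% and 10, and the median of all windows was 52.7% and 7. By the deposited positions Cd36 has its 5′ end at 17888801, so its window lies inside the gene. The Plin2 window spans that gene's 5′ end at 86670060. The first 20 transcribed bases of the Cd36 window occurred in 0 of its 6 GENCODE transcripts. Those of the Plin2 window occurred in 1 of 8. A window need thus not be the start used in these cells. Letters in a window describe it and do not show that a factor binds there. RefSeq windows were matched by symbol for 7 of the 10 genes, and not for Fabp5, Dgat1 or Dgat2.

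Slc27a1 and Slc27a4, which encode fatty acid transport proteins, went in different directions. Slc27a1 (FATP1; ENSMUSG00000031808, chromosome 8, 71568927 to 71586708) measured 13.9 and 14.0 CPM (wild type 13 and 15) against 20.3 and 18.1 CPM (knockout-labelled 22 and 24), a log2 fold change of 0.46 (SE 0.17) that was not called. Slc27a4 (FATP4; ENSMUSG00000059316, chromosome 2, 29802634 to 29817522) measured 22.9 and 23.5 CPM (wild type) against 17.4 and 20.1 CPM (knockout-labelled), a log2 fold change of -0.31 (SE 0.17), also not called. The groups did not overlap for either gene. Within a library, the ratio of Slc27a1 to Slc27a4 FPKM does not depend on how libraries are scaled. It was 1.0 and 0.983 in wild type 13 and 15, 1.93 in knockout-labelled 22 and 1.48 in knockout-labelled 24. The pair was thus present at like length-scaled levels in wild type, with more Slc27a1 than Slc27a4 in both knockout-labelled libraries. Elsewhere in the family, Slc27a3, Slc27a5 and Slc27a6 showed log2 differences of 1.02, 2.51 and 0.14, and none was called. Slc27a5 rested on 3 and 2 counts (wild type) against 15 and 14 counts (knockout-labelled). Slc27a2 was below the filter.

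Fabp5, the epidermal fatty acid binding protein that shuttles fatty acids to mitochondria and the nucleus (ENSMUSG00000027533, chromosome 3, 10012548 to 10016607), measured 31.4 CPM in both wild-type libraries, against 17.9 CPM (knockout-labelled 22) and 24.8 CPM (knockout-labelled 24). Both knockout-labelled values lay below wild type, and library 22 was the lower. The log2 fold change was -0.56 (SE 0.19) and was not called. Leaving out library 22 gave -0.33, and leaving out library 24 gave -0.81, where the gene was called lower. Fabp5 has copies elsewhere in the genome, and 1 table row is named as one, Fabp5l2, with 0 counts in every library.

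The acyl-CoA synthetase genes differed in level and in their spread. Acsl5 (ENSMUSG00000024981, chromosome 19, 55253369 to 55296627), the most abundant of the 10 genes, measured 254 and 262 CPM (wild type 13 and 15) against 202 and 232 CPM (knockout-labelled 22 and 24) (log2 fold change -0.25, SE 0.12). Acsl3 (ENSMUSG00000032883, chromosome 1, 78657825 to 78707743), a synthetase found on the endoplasmic reticulum and on nascent lipid droplets, measured 46.3 and 45.8 CPM (wild type) against 93.2 and 55.9 CPM (knockout-labelled 22 and 24) (log2 fold change 0.69, SE 0.24). Library 22 carried most of that difference, since the log2 fold change of Acsl3 was 0.29 without it and 1.01 without library 24, where it was called higher. DESeq2 and edgeR with no filter also called Acsl3 higher. Acsl1 (ENSMUSG00000018796, chromosome 8, 46471041 to 46536051) measured 18.7 and 10.6 CPM (wild type) against 9.50 and 16.1 CPM (knockout-labelled). It was the 1 gene of the 10 whose groups overlapped, and its log2 fold change of -0.19 (SE 0.35) ran from -0.63 to 0.27 with each library left out. In GENCODE M21, Acsl3 shares 244 exon bases with Utp14b on the same strand, and Acsl5 shares 404 with Zdhhc6 on the opposite strand. Acsl1 shares 1039 with Gm45244 on the opposite strand. By the deposited positions, however, Zdhhc6 lies 1674 bases downstream of Acsl5. The annotation used for counting is not given, so whether some reads of these pairs were counted for either gene is not known. Utp14b gave 342 and 340 counts (wild type 13 and 15) against 497 and 361 (knockout-labelled 22 and 24). Its part in the Acsl3 value was not tested. Zdhhc6 fell (46.0 and 53.1 CPM for wild type, 27.9 and 32.4 CPM for knockout-labelled; edgeR adjusted p = 0.0350) but was not called without wild type 13 or 15 (adjusted p = 0.112 and 0.284), and its part in the Acsl5 value was not tested.

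The summed FPKM of Acsl1, Acsl3, Acsl4, Acsl5 and Acsl6 was 127 and 130 (wild type 13 and 15) against 121 and 122 (knockout-labelled 22 and 24). Acsl5 made up 64.4% and 65.6% of that sum in wild type, 50.9% in knockout-labelled 22 and 60.3% in knockout-labelled 24. The share of Acsl4, which prefers arachidonic acid, was 28.5% and 27.9% (wild type) against 37.0% and 31.5% (knockout-labelled). That of Acsl3 was 5.72% and 5.58% (wild type) against 11.5% and 7.07% (knockout-labelled). Acsl1 and Acsl6 together held the small remainder. The sum differed little between libraries, while its make-up shifted from Acsl5 towards Acsl4 and Acsl3 in both knockout-labelled libraries, more so in library 22. These shares come from the same libraries as the differences above and were not tested.

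Dgat1 and Dgat2 catalyse the same reaction, the last step of triacylglycerol synthesis, but are unrelated in sequence. Dgat1 (ENSMUSG00000022555, chromosome 15, 76502015 to 76511951, minus strand), which resides in the endoplasmic reticulum, measured 64.7 and 52.5 CPM (wild type 13 and 15) against 185 and 130 CPM (knockout-labelled 22 and 24). Both knockout-labelled libraries were above both wild-type libraries. The log2 fold change of Dgat1 was 1.43 (SE 0.21), and 408 of the 13279 genes tested had a higher one. It ran from 1.16 to 1.65 with each library left out. The gene was not called without wild type 15, nor against a minimum fold of 1.5. Dgat2 (ENSMUSG00000030747, chromosome 7, 99153663 to 99182713, minus strand), which also works at lipid droplets, gave 97 and 69 counts (wild type) against 35 and 45 (knockout-labelled), or 5.94, 4.63, 2.34 and 2.87 CPM. The groups of Dgat2 did not overlap, and its log2 fold change of -1.02 (SE 0.30) was not called. It was called lower with edgeR and no filter, and without knockout-labelled 24. Within a library, the ratio of Dgat1 to Dgat2 FPKM was 4.46 in wild type 13, 4.65 in wild type 15, 32.4 in knockout-labelled 22 and 18.6 in knockout-labelled 24. Both knockout-labelled ratios lay above both wild-type ratios, as follows from the opposite directions of the 2 genes.

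**Figure D2:**
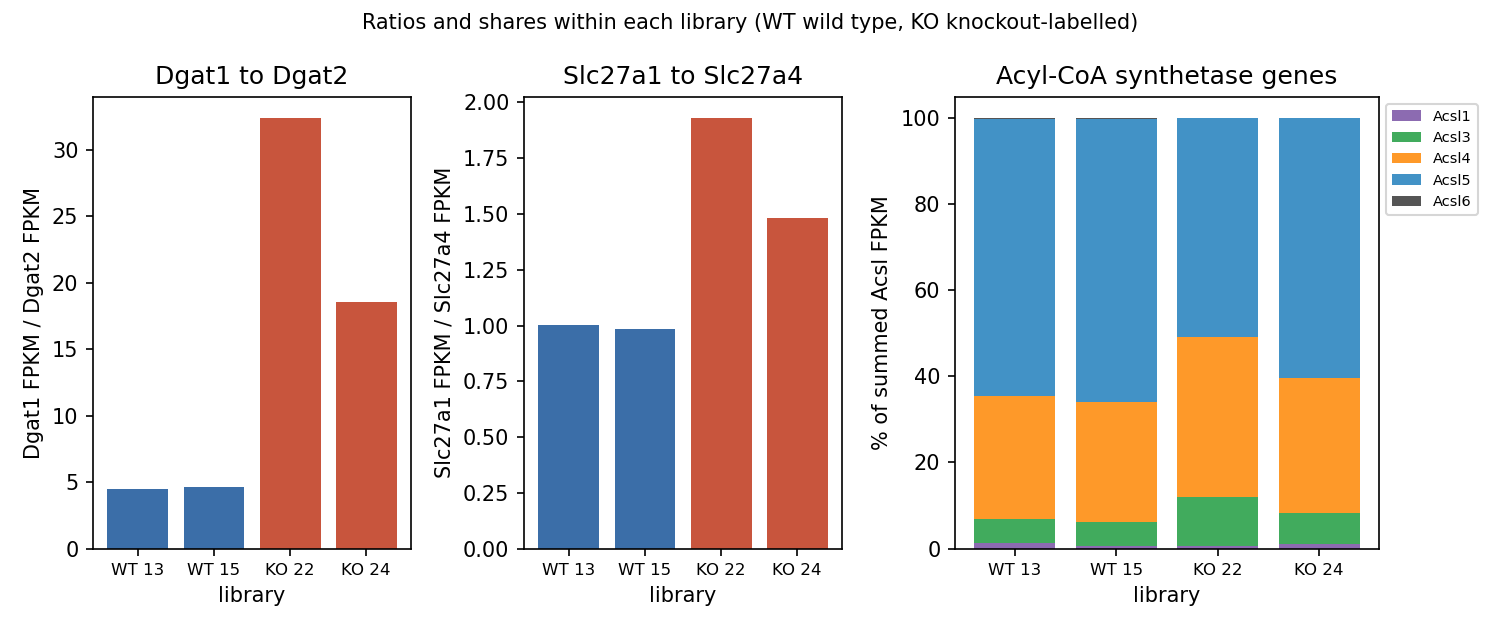
Ratio of Dgat1 to Dgat2 FPKM (left), ratio of Slc27a1 to Slc27a4 FPKM (middle) and percent of summed Acsl FPKM held by each synthetase gene (right) in each library. The Dgat1 to Dgat2 ratio is 4.46 and 4.65 in wild type (blue) and 32.4 and 18.6 in the knockout-labelled libraries (red).

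Plin2, the perilipin that coats lipid droplets in most cells (ENSMUSG00000028494, chromosome 4, 86648386 to 86670060, minus strand), measured 24.9 and 25.3 CPM (wild type 13 and 15) against 42.3 and 38.2 CPM (knockout-labelled 22 and 24). The libraries of each group lay close together and the groups did not overlap. The log2 fold change was 0.68 (SE 0.14), and it ran from 0.62 to 0.75 with each library left out. Plin2 was not called without wild type 13, without wild type 15, with limma on FPKM, or against a minimum fold of 1.5. The ratio of Plin2 to Plin3 FPKM, the other perilipin measured above the filter, was 0.201 and 0.229 (wild type) against 0.208 and 0.225 (knockout-labelled). These ranges overlapped.

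**Figure D3:**
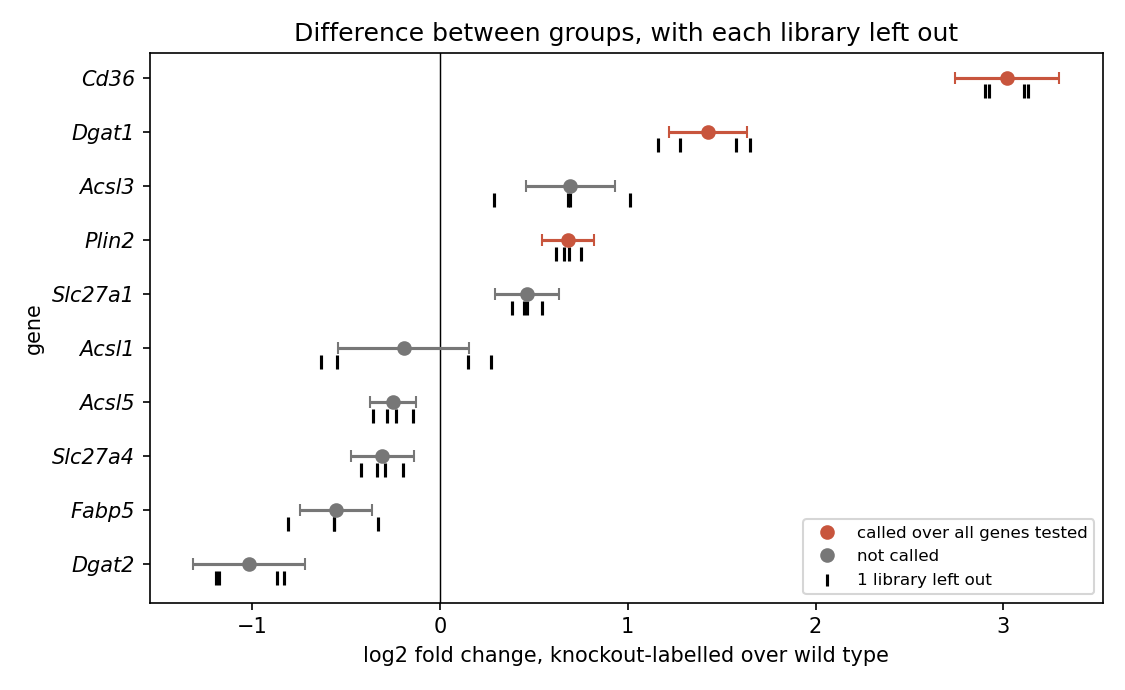
Log2 fold change (knockout-labelled over wild type) of each of the 10 genes with its SE, and as short black ticks the values with 1 library left out. Cd36, Dgat1 and Plin2 (red) were called over all genes tested, and the ticks of Acsl1 fall on both sides of 0.

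How far libraries of 1 group differed from each other was also read. The genes were chosen with earlier results of these data known, and those depend in part on this spread, so the ratios are a description. For each gene and group the ratio of the 2 libraries was computed with an exact 95% interval from the counts, which compares those libraries and not the conditions. Such ratios were not computed over all genes tested. Whether the counts given next are particular to these genes was therefore not tested. Of 20 ratios, 7 had an interval that excluded 1, 2 of them between wild-type and 5 between knockout-labelled libraries. The wild-type ratios were those of Acsl1, 1.76-fold higher in library 13 (interval 1.45 to 2.15), and Dgat1, 1.23-fold higher in library 13 (1.12 to 1.35). In the knockout-labelled group, Acsl3 and Dgat1 were 1.67-fold (1.53 to 1.82) and 1.42-fold (1.34 to 1.51) higher in library 22. Fabp5, Acsl1 and Acsl5 were 1.38-fold (1.18 to 1.62), 1.70-fold (1.38 to 2.10) and 1.15-fold (1.10 to 1.21) higher in library 24. For Cd36 the ratio of library 24 to 22 was 1.16 (0.913 to 1.47) and for Plin2 it was 0.902 (0.806 to 1.01), both with intervals that include 1. In wild type the ratio of library 15 to 13 was 0.876 (0.424 to 1.78) for Cd36, a wide interval that rests on 16 and 20 counts, and 1.02 (0.881 to 1.17) for Plin2.

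The nearest tested genes on either side of the 3 genes called higher were also read. The neighbours of Cd36, Sema3d and Magi2, lay 5192742 and 1338235 bases away at up to 3.57 CPM and were not called (adjusted p = 0.500 and 0.843). Scrt1, 4252 bases upstream of Dgat1 on the same strand, was higher, at 9.56 and 6.78 CPM (wild type) against 17.0 and 20.4 CPM (knockout-labelled) (log2 fold change 1.19, SE 0.23, adjusted p = 0.0308), but was not called without wild type 15 (adjusted p = 0.168). Hsf1, the heat shock factor gene 1043 bases downstream of Dgat1 on the opposite strand, showed a log2 difference of 0.41 (adjusted p = 0.0990). Those beside Plin2, Haus6 and Dennd4c, were not called (adjusted p = 0.584 and 0.147). Whether the neighbours of Dgat1 have a part in its value was not tested.

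The genes whose profile over the 4 libraries was most like that of Cd36 were Csgalnact1, Ica1, Hnrnpa3, Klri2 and Dab2. Likeness was the Euclidean distance between log2 CPM values centred on each gene's own mean, among 9826 genes with a mean of 5 or more CPM and an established symbol. The distances ran from 0.198 for Csgalnact1 to 0.443 for Dab2. Csgalnact1, a chondroitin sulfate synthesis enzyme, measured 2.21 and 2.15 CPM (wild type) against 16.0 and 15.9 CPM (knockout-labelled). Ica1 measured 1.41 and 1.54 CPM (wild type) against 10.4 and 10.8 CPM (knockout-labelled). The list rests on 4 libraries in 2 groups, so it mostly names genes with a like difference between the groups.

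Other genes of the same steps were taken from 7 lists chosen by function. Of 109 such genes beside the 10, 79 passed the filter and 16 had 0 counts in every library. Of the 79, 5 rose and 5 fell (edgeR), or 12.7%, beside 10.1% of all genes tested, and their median log2 fold change was 0.093 beside -0.0013. The share called lies near that of all genes. The median log2 fold change of a list ran from -0.09 for the regulators to 0.31 for the transporters and scavenger receptors, and was -0.0088 for the droplet genes and -0.071 for the synthesis genes. Without wild type 13 the counts were 0 and 1, without wild type 15 they were 0 and 0, and without knockout-labelled 24 they were 17 and 13.

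Among lipid droplet coat and assembly genes 3 of 11 tested rose and 0 fell. Limma-voom and DESeq2 also called 0 lower, and 2 were lower at an unadjusted p below 0.05. For this list and each list below, the shares over all genes tested were 5.53% called higher and 4.59% called lower. The median log2 fold change of the droplet list was -0.0088. Hilpda, which inhibits the lipase ATGL, rose from 9.99 and 10.1 CPM to 24.2 and 25.3 CPM (log2 fold change 1.30, SE 0.17, adjusted p = 0.0141). Hsd17b11, a droplet-associated dehydrogenase, rose from 14.0 and 14.4 CPM to 29.4 and 27.6 CPM (adjusted p = 0.0204), and the perilipin gene Plin3 rose from 51.1 and 45.5 CPM to 83.7 and 69.8 CPM (adjusted p = 0.0407). Ubxn4, the gene of the list with the highest mean CPM over all libraries among those not called, measured 119 and 115 CPM (wild type) against 238 and 154 CPM (knockout-labelled) (adjusted p = 0.0675). Plin1, Plin4, Plin5 and Cidec, known from adipocytes, liver and muscle, had 0 counts in every library. Among lipolysis enzymes 1 of 8 rose and 0 fell (DESeq2 and limma-voom gave the same counts, and 0 were lower at an unadjusted p below 0.05). It was Pnpla2, which encodes ATGL, from 50.4 and 51.0 CPM to 86.1 and 71.0 CPM (adjusted p = 0.0435), while the lysosomal lipase gene Lipa showed a log2 difference of -0.024 (adjusted p = 0.936).

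The list of triacylglycerol synthesis and related acyltransferase genes, without Dgat1 and Dgat2, gave 3 lower and 0 higher of 12 tested. Over all genes tested 4.59% were called lower. In this list 0 were higher also with DESeq2 and limma-voom, and 0 at an unadjusted p below 0.05. Gpam, the mitochondrial acyltransferase of the first step, fell from 13.7 and 14.1 CPM to 5.96 and 7.66 CPM (log2 fold change -1.03, SE 0.21, adjusted p = 0.0332). Agpat3, which acylates lysophosphatidic acid and other lysophospholipids, fell from 254 and 265 CPM to 153 and 178 CPM (adjusted p = 0.0308). Soat2, a sterol O-acyltransferase of the list that makes cholesteryl esters and not triacylglycerol, fell from 11.5 and 13.0 CPM to 4.28 and 5.30 CPM (adjusted p = 0.0219). Lpin1, a phosphatidate phosphatase, measured 117 CPM in both wild-type libraries, 177 CPM in library 22 and 69.7 CPM in library 24 (adjusted p = 0.906), with library 22 above and library 24 below wild type.

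Of 15 tested synthetase and thioesterase genes, 1 fell and 0 rose (0 also with DESeq2 and limma-voom, and 3 higher at an unadjusted p below 0.05). Acsl6, a synthetase best known from brain, fell from 61 and 83 counts in wild type to 4 and 11 counts in the knockout-labelled libraries, or from 3.74 and 5.57 to 0.268 and 0.702 CPM (log2 fold change -3.23, SE 0.50, adjusted p = 0.0204). Without library 24 the log2 fold change of Acsl6 was -4.08. Acsl4 showed a log2 difference of 0.26 (adjusted p = 0.230). Of 8 tested binding protein genes, Crabp2, a retinoic acid binding protein, fell from 3.25 and 2.48 CPM to 0.402 and 0.702 CPM (adjusted p = 0.0306), and Acbd3 showed a log2 difference of 0.65 (adjusted p = 0.0907). None of those 8 rose with edgeR or limma-voom, DESeq2 called 1 higher, and 2 were higher at an unadjusted p below 0.05. Of 12 tested transporters and scavenger receptors beside Cd36, Slc27a1 and Slc27a4, 0 rose and 0 fell with edgeR. At an unadjusted p below 0.05, 3 were higher and 1 lower, DESeq2 called 1 in each direction and limma-voom 1 lower. Scarb2, which had the highest mean CPM of these 12, showed a log2 difference of 0.47 (adjusted p = 0.0556).

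Of 13 tested regulators 1 rose and 0 fell (0 lower also with DESeq2 and limma-voom, and 2 at an unadjusted p below 0.05). Hif1a, the hypoxia-inducible factor, rose from 905 and 894 CPM to 1426 and 1184 CPM (log2 fold change 0.54, SE 0.12, adjusted p = 0.0440). Ncor1, a corepressor of nuclear receptors, showed a log2 difference of 0.22 (adjusted p = 0.583). The PPAR genes, whose receptors bind fatty acids and were named after their values were seen, were not called: Ppard gave 505 to 660 counts per library, and Pparg 22 and 12 counts (wild type) against 35 and 44 (knockout-labelled) (adjusted p = 0.497 and 0.0979). Ppara was below the filter, with 0 counts (wild type) and 3 and 0 (knockout-labelled). Of the 10 called genes of these lists, only Acsl6 passed when wild type 13 was left out (adjusted p = 0.0159; the others 0.0501 to 0.247). None passed when wild type 15 was left out (0.0676 to 0.322), and Crabp2 did not when library 22 was left out (0.0545).

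**Figure D4:**
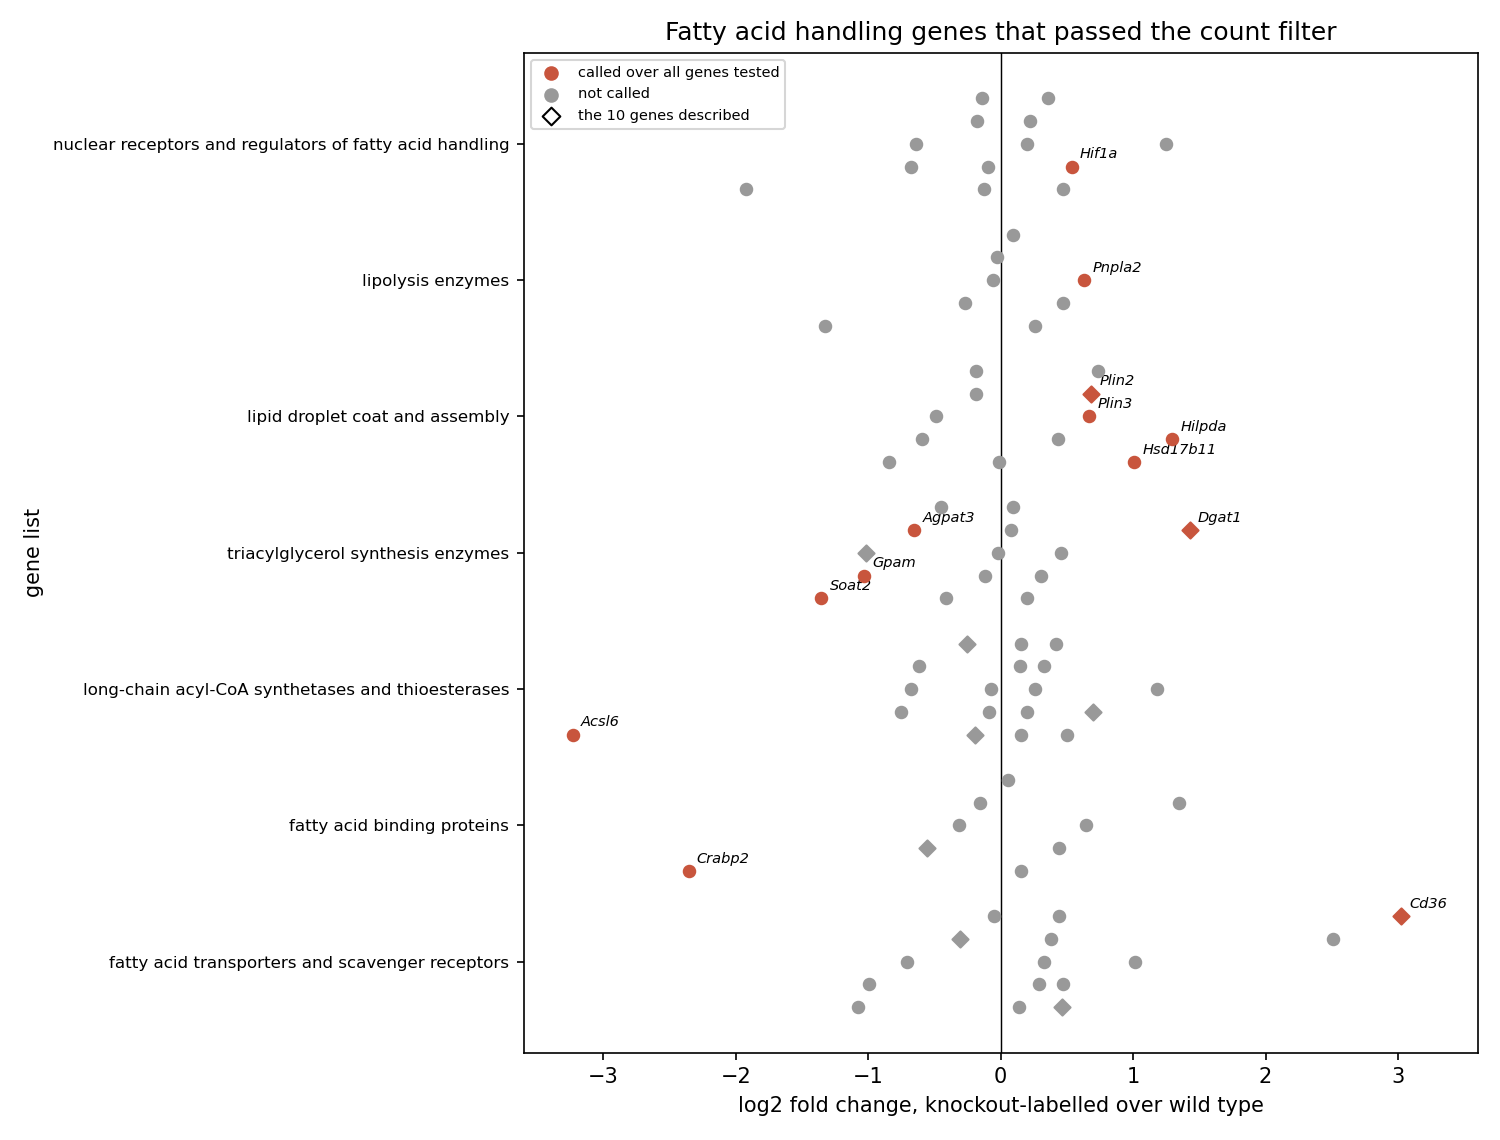
Log2 fold change (knockout-labelled over wild type) of every fatty acid handling gene that passed the count filter, by list. Red points were called over all genes tested, grey points were not, and diamonds are the 10 genes described. Called droplet genes lie to the right of 0, while called synthesis genes lie on both sides.

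Cd36 is also made by macrophages, platelets, B cells, endothelium and adipocytes, so markers of these cells were read beside it. In bulk RNA, fewer cells of a type and less RNA per cell cannot be told apart. Of 12 monocyte and macrophage markers 7 were tested and 1, C1qb, fell, though not with DESeq2, nor without wild type 15 (adjusted p = 0.214), library 22 (0.0582) or library 24 (0.0667). C1qb gave only 14 and 10 counts (wild type) against 1 and 0 (knockout-labelled). The median log2 fold change of the 7 tested was 0.25. The summed level of the 12 was 24.9 and 33.3 CPM (wild type) against 22.8 and 28.9 CPM (knockout-labelled), ranges that overlapped. Most of it was Lyz2, at 5.62 to 14.5 CPM, and Cd68. Cd68 stood at 9.44 and 8.45 CPM (wild type) against 9.57 and 12.4 CPM (knockout-labelled) and was not called. The defining markers Csf1r and Adgre1 were at or below 1.94 CPM. The 8 platelet markers summed to 4.43 to 6.32 CPM in all libraries, nearly all of it Itga2b, with Gp9, Gp1ba and Treml1 at 0. Adipocyte markers summed to at most 0.402 CPM, with Plin1, Cidec and Lep at 0. Of 7 endothelial markers 2 were tested and none was called (edgeR, DESeq2 and limma-voom; 1 was higher at an unadjusted p below 0.05). They summed to 44.1 and 42.9 CPM (wild type) against 66.7 and 59.3 CPM (knockout-labelled). Nearly all of this was Pecam1, which T cells also express, and Cdh5 and Kdr gave at most 4 counts in a library.

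The summed levels of B cell, gamma-delta T cell and natural killer markers were higher in both knockout-labelled libraries, as Cd36 was. Of 10 B cell markers, all tested, Igkc rose, though not without wild type 13 or 15 (adjusted p = 0.0513 and 0.144), and the groups did not overlap for 9, beside 63.8% of all genes tested. One of the 9, Fcer2a, was lower in the knockout-labelled libraries, with a log2 difference of -0.62 that was not called. Their summed level was 238 and 240 CPM (wild type) against 309 and 352 CPM (knockout-labelled), mostly Ighm. Of 8 gamma-delta markers 6 were tested and 4 rose with edgeR and DESeq2, 1 with limma-voom and 2 with limma on either FPKM scale. With edgeR 5.53% of all genes tested were called higher. The 4 called with edgeR were Cd163l1, Tcrg-C1, Tcrg-C2 and Trgv2, with log2 fold changes of 3.95, 1.98, 1.48 and 1.43. Cd163l1 measured 0.306 and 0.537 CPM (wild type) against 5.82 and 7.28 CPM (knockout-labelled). The median log2 fold change of the 6 tested was 1.458. The 2 tested markers not called were Trdc and Tcrg-C4. Trdc stood at 5.09 and 6.57 CPM (wild type) against 10.1 and 5.81 CPM (knockout-labelled), which overlapped. Tcrg-C4 showed a log2 difference of -0.025. The sum of the 8 was 22.5 and 22.2 CPM (wild type) against 47.2 and 69.8 CPM (knockout-labelled). Of 6 natural killer markers 3 were tested, of which Gzma rose and Eomes fell, with sums of 58.2 and 52.5 CPM and of 127 and 168 CPM. Gzma carried the rise of that sum, at 34.0 and 29.6 CPM (wild type) against 112 and 159 CPM (knockout-labelled). Eomes went the other way, from 22.7 and 21.7 CPM to 10.2 and 7.53 CPM. Of 6 dendritic cell markers 3 were tested, of which Zbtb46 rose and Flt3 fell (Flt3 not with limma), with sums of 24.8 and 19.1 CPM and of 35.8 and 26.2 CPM. The part of these cells in the levels of Cd36, Dgat1 and Plin2 was not tested. Red cell markers summed to 2.48 to 3.49 CPM, and the pair of CD8 genes to 125 and 183 CPM (wild type) against 182 and 78.4 CPM (knockout-labelled).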

How the data were processed

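TRIzol-extracted total RNA was sequenced on an Illumina HiSeq, per the labels' protocols. The tools named are Bowtie2 and RSEM, with the mouse build GRCm38.p6 (mm10), per the submitters' processing notes. Not given in the sources used here are their versions and options, the annotation release and the use of strand. The deposited table held whole-number counts and the authors' FPKM for 34745 genes. The numbers 13, 15, 22 and 24 and the groups come from the titles.

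Counts were tested with edgeR 4.0.16 in R 4.3.3: filterByExpr (minimum count 10, minimum total 15), scaling by trimmed mean of M values, glmQLFit and glmQLFTest, two-sided, with Benjamini-Hochberg adjustment over all genes tested and a threshold of 0.05. The test was tried first on counts simulated with the spread fitted to these libraries, and nothing about the calls is read from that. SE is the size of the log2 fold change over the square root of F. With 2 libraries on each side the smallest exact p is 0.333, so calls rest on the spread shared across genes. Levels of the 10 genes are compared with each other only in FPKM. Sums over markers are in CPM, which also depends on transcript length. Of 119 fatty acid handling genes, 118 matched by symbol and 1 by identifier. Promoters were from RefSeq (GRCm38.p6) and exons from GENCODE M21. Figures used matplotlib 3.10.9.

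The 10 genes and all lists were chosen with earlier results of these data known. The genes named are the 10, the called genes of the lists, of those not called the gene of each list with the highest mean CPM, and the 5 genes most like Cd36 (log2 CPM, prior count 2). Others named were chosen after their values were seen. Alternatives were other scalings and filters, DESeq2 1.42.0, limma 3.58.1 (voom, and FPKM on a log2 scale with a pseudocount of 1 or 0.1), glmTreat against a fold of 1.5, and leaving out each library.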

Additional observations from a re-analysis of the deposited data

How the results depend on the processing

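The log2 fold change of 9 of the 10 genes kept its direction under all 14 alternatives. That of Acsl1 turned to 0.27 without wild type 13 and to 0.15 without knockout-labelled 22, in a range from -0.63, and the cause was not tested. Cd36 was called higher in all 14, Dgat1 in 12 and Plin2 in 9. The log2 fold change of Cd36 was 0.88 on log2(FPKM + 1), where the pseudocount exceeds its wild-type level, and 2.32 on log2(FPKM + 0.1). Of the 10 genes, 1 was called higher against a minimum fold of 1.5, and 1 lower with no filter. With a library left out, 1 to 4 were higher and 0 to 3 lower.

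Of the other fatty acid handling genes, 8 were higher with no filter, 8 with DESeq2, 2 on either FPKM scale and 0 against a minimum fold of 1.5, where 0 were lower. With a library left out, 0 to 17 were higher and 0 to 13 lower. Over all genes, 1261 were higher and 1088 lower with no filter (more genes tested), and 85 and 35 against a minimum fold of 1.5. On log2(FPKM + 1) 445 were higher and on log2(FPKM + 0.1) 457. With a library left out, 120 to 2122 were higher and 70 to 2002 lower. In those fits the lone library is taken to vary as the remaining pair does. No paired analysis was possible because the groups share no library number. Low counts limit the precision for Cd36 and Dgat2.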
